A study of Mus musculus with 24 samples.

Results

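A set of 10 genes of the macrophage lineage were followed through mammary tumor progression in mice. The members are Csf1, Csf1r, Emr1 (Adgre1 in newer releases), Cd68, Mrc1, Cd163, Lyve1, Trem2, Arg1 and Aif1, which make 10 of the 37991 genes counted, and they were chosen by symbol as general, resident-type and tumor-type macrophage genes. RNA was taken from PyMT mice, F1 females of the FVB/N strain that were heterozygous for a transgene in which the MMTV promoter drives the middle T oncogene of polyoma virus, and from age-matched homozygous FVB females without the transgene. Each genotype was sampled at weeks 6, 8, 10 and 12 with 3 mice and 1 library per mouse, which gives 24 libraries in 8 groups. PyMT samples were mammary tumors or lesions, labeled as hyperplasia at the first age, adenoma/MIN at the second, and carcinoma, early and then late, at the last ages, and FVB samples were normal mammary glands of the same ages. This promoter is active mainly in mammary epithelium. The tissue was bulk, so fewer cells of a type and less RNA per cell cannot be told apart for any gene below.

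Macrophages of the mammary gland come from embryonic precursors and from blood monocytes, and both depend on signals through the receptor encoded by Csf1r, whose ligands are encoded by Csf1 and Il34. Emr1 encodes the surface protein F4/80, Cd68 a lysosomal glycoprotein and Aif1 a calcium-binding protein of the cytoskeleton (IBA1), and all of these are used as general macrophage markers. Mrc1 (the mannose receptor CD206), Cd163 (the receptor for hemoglobin-haptoglobin complexes) and Lyve1 (a hyaluronan receptor, also made by lymphatic endothelium) mark tissue-resident and alternatively activated macrophages. Trem2, a lipid-sensing receptor that signals through the adaptor encoded by Tyrobp, and Arg1, which encodes the enzyme that splits arginine into ornithine and urea, are linked to macrophages of tumors and of lipid-rich tissue.

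Total counts ran from 6969375 to 13516601 per library. In 13 of the 24 libraries, 6 PyMT and 7 FVB, genes clustered around a low count of 8 to 25. That value is called the packet size of the library. The size of this cluster was not compared with the number of genes at a count of 1. FVB week 10 replicate 3 and PyMT week 8 replicate 2 had the most genes at 0, with 4.4% and 2.87% of 3799 genes of 10 to 30 CPM (counts scaled to library size) undetected. All 10 macrophage genes passed the filter of 1 CPM in at least 12 libraries, as did 14918 genes in all. Trem2 reached 1 CPM in 12 PyMT and only 6 FVB libraries, so it passed through the group where it was high.

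The resident-type genes Cd163 and Lyve1 were lower in PyMT tissue, Trem2 and Arg1 were higher, and the general markers Emr1, Cd68 and Aif1 did not pass the test over all weeks. Csf1, Csf1r and Mrc1 were lower by less than 2-fold. The test was edgeR's quasi-likelihood test, with p-values adjusted by the method of Benjamini and Hochberg and with week as a term for the 12 PyMT and 12 FVB libraries together. A gene was called when the adjusted p was under 0.05 and the fold over 2. By that rule 4 of the 10 genes were called, against 25.7% of all genes tested, 2 higher (8.51% of all genes) and 2 lower (17.2% of all genes). With the adjusted p alone 7 of 10 passed, against 51.1% of all genes. The median log2 fold change of the 10 genes was -0.27, beside -0.03 for all genes.

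**Figure D1:**
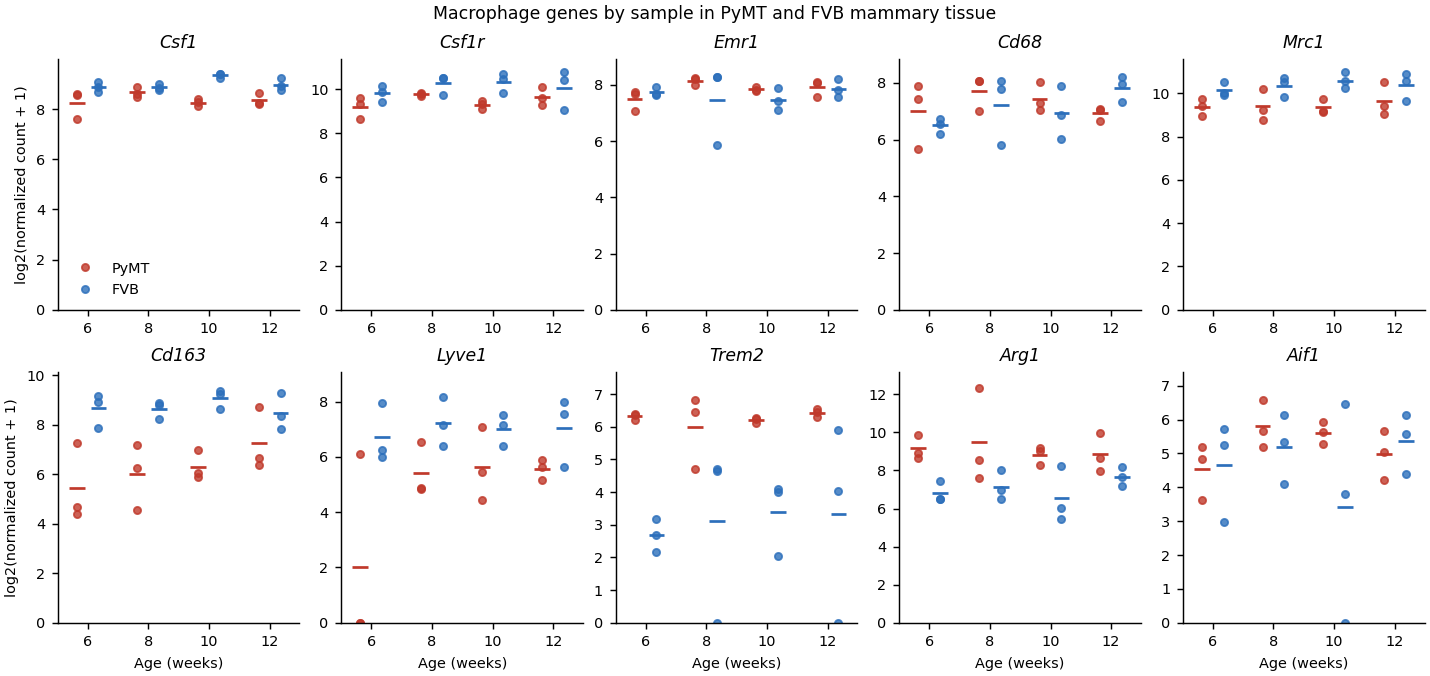
Each point is 1 library, as log2 of the normalized count plus 1, at 6, 8, 10 and 12 weeks of age, with PyMT in red and FVB in blue and a bar at the mean of 3 libraries. Trem2 lay higher in the PyMT group than in the FVB group at every week, and Cd163 lay lower in 11 of 12 PyMT libraries than in any FVB library.

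The upstream DNA of members that moved in opposite directions or that did not move is shown first, as the 250 bases before the transcription start from RefSeq on GRCm38.p6, a later build than the mm9 coordinates used below. A promoter was at hand for 6 members, Csf1, Cd68, Mrc1, Cd163, Trem2 and Aif1, and no promoter is shown for Csf1r, Emr1, Lyve1 or Arg1. Capitals mark GAGGAA or, on the other strand, TTCCTC, the core letters bound by PU.1, the transcription factor that defines the myeloid lineage. The 4 printed below are Cd163, which fell, Trem2, which rose, Cd68, which did not pass the test, and Mrc1, which had the most matches. They lie at chr6:124304401-124304650 (plus strand), chr17:48346151-48346400 (plus strand), chr11:69666171-69666420 (minus strand) and chr2:14229164-14229413 (plus strand).
Cd163: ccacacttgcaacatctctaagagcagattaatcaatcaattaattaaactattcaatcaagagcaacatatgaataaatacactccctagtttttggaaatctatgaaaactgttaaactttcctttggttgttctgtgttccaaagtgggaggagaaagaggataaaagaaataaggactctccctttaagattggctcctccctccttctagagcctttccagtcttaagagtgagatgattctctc
Trem2: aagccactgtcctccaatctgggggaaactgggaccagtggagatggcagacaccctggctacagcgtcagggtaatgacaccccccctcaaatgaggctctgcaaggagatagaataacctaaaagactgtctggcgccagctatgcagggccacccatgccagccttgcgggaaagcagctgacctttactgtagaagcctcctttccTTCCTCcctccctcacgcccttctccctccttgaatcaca
Cd68: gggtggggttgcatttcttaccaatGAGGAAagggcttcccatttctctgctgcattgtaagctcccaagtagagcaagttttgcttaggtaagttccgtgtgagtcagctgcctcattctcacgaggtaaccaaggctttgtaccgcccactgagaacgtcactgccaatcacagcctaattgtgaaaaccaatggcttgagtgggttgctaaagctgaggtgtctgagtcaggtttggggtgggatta
Mrc1: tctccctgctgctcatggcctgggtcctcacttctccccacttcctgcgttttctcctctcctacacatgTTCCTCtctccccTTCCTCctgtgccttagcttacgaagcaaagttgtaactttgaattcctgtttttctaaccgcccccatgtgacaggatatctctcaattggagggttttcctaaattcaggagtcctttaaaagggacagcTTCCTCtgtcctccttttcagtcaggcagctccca

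The PU.1 core was found in 4 of the 6 promoters, and 23.3% of 32851 RefSeq promoters cut to the same length held it. Mrc1 had 3 matches on the minus strand, starting at -180, -167 and -35 from the transcription start, Trem2 had 1 at -40, Aif1 had 1 at -7 and Cd68 had 1 on the plus strand at -225. Csf1 and Cd163 had none. The AP-1 letters were searched on both strands as TGANTCA, with N for any base. A match was found as TGAGTCA at -149 and -24 in Cd68, as TGAATCA at -9 in Trem2, and in 6.75% of all promoters. The E-box CACGTG, bound by factors of the TFE family among others, was in none of the 6 and in 6.02% of all promoters. A match or its absence in this window is a description of letters, and binding was not measured.

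Csf1, the growth factor on which most macrophages depend, lies on mm9 at chr3:107543966-107563387 on the minus strand (ENSMUSG00000014599). Its normalized counts in the 3 PyMT libraries were 374.8, 191.9 and 383.5 at week 6, 359.7, 389.1 and 474.6 at week 8, 335.4, 275.6 and 306.2 at week 10, and 289.9, 396.4 and 303.1 at week 12. In FVB they were 471.7, 407.2 and 538.3, then 437.8, 505.9 and 456.5, then 674.2, 600.2 and 674.5, and finally 477.6, 433.5 and 610.2. Of the 12 PyMT libraries 11 were below the lowest FVB library, with PyMT week 8 replicate 3 as the exception. Over all weeks the log2 fold change was -0.60 (SE 0.13, adjusted p 0.000357, edgeR). The coefficient of variation in FVB, 18.0%, was the lowest of the 10 genes, and it was 21.4% in PyMT.

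Csf1r, the receptor for this factor, lies on chromosome 18 at 61265226 to 61291803 (ENSMUSG00000024621), and its gene model overlaps Hmgxb3 on the opposite strand. Normalized counts in PyMT were 785.2, 403.6 and 639.4 at week 6, 814.7, 921.7 and 890.5 at week 8, 645, 551.2 and 702 at week 10, and 1088, 782.1 and 618.2 at week 12. The FVB values were 933, 684.9 and 1148 at week 6, 866.7, 1468 and 1479 at week 8, 918.5, 1430 and 1664 at week 10, and 1353, 533.1 and 1736 at week 12. Separation between genotypes was complete only at week 10, and 7 of 12 FVB libraries exceeded the highest PyMT library. Over all weeks Csf1r was lower by a log2 fold change of -0.67 (SE 0.17, adjusted p 0.00154, edgeR). Whether reads of Hmgxb3 entered the Csf1r count depends on the strand setting of the counting, which is not given in the sources used here.

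Csf1 and Csf1r passed the adjusted p under most scalings but not all. When libraries were scaled by their total alone, the median of all genes moved by 0.29 on the log2 scale, and the adjusted p of Csf1 became 0.0615 with a log2 fold change of -0.31 and that of Csf1r 0.0613 with -0.37.

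Among the general markers, Emr1 (F4/80; ENSMUSG00000004730, chr17:57498109-57622952) ran from 133.9 to 301.9 normalized counts with a median of 234.1 in 12 PyMT libraries and from 56.8 to 312.8 with a median of 213.5 in 12 FVB libraries. Its log2 fold change was 0.14 (SE 0.19, 95% interval -0.26 to 0.53, adjusted p 0.581, edgeR). A change of 2-fold lay outside that interval in both directions.

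Cd68 (ENSMUSG00000018774, chr11:69477715-69479655), a lysosomal protein abundant in phagocytes, varied more. Its normalized counts ran from 49.9 to 267.2 with a median of 143.2 in PyMT and from 55.5 to 294.6 with a median of 137.9 in FVB. The log2 fold change was 0.15 (SE 0.29, 95% interval -0.46 to 0.75, adjusted p 0.708, edgeR). At week 12 the order differed from that of the other weeks, with 99.7, 132.5 and 132.1 in PyMT all below 294.6, 160.1 and 247.1 in FVB, although the adjusted p was 0.0642 at a log2 fold change of -0.89.

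Aif1 (ENSMUSG00000024397, chr17:35307936-35313013), the gene of IBA1, was the least abundant general marker. It ran from 11.4 to 94.5 normalized counts in PyMT and from 0 to 87.2 in FVB, where week 10 replicate 3 had no read, so that up to 4.70 normalized counts (3 reads, counting error only) remain possible in that library. The log2 fold change of 0.07 had an SE of 0.51 and a 95% interval from -0.98 to 1.12 (adjusted p 0.923, edgeR), which holds a 2-fold increase and ends just short of a 2-fold decrease.

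Mrc1, the mannose receptor gene (ENSMUSG00000026712, chr2:14151041-14253684), contains the Mir511 model on the same strand. In PyMT its normalized counts were 500.3, 853.1 and 685.9 at week 6, 603.9, 434.1 and 1156 at week 8, 579.2, 854.1 and 552.7 at week 10, and 1447, 674.2 and 527.7 at week 12. In FVB they were 1448, 966.4 and 1033, then 903.3, 1682 and 1457, then 1524, 1195 and 2002, and at week 12 they were 1528, 794 and 1881. The genotypes were separate at weeks 6 and 10 and overlapped at weeks 8 and 12, through PyMT week 8 replicate 3 and PyMT week 12 replicate 1. Over all weeks the log2 fold change was -0.87 (SE 0.19, adjusted p 0.000459, edgeR), which is 1.83-fold lower, and 8 of 12 PyMT libraries were below the lowest FVB library.

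Cd163, the scavenger receptor for hemoglobin-haptoglobin (ENSMUSG00000008845, chr6:124254669-124280545, plus strand), had the largest decrease of the 10 genes over all weeks. PyMT normalized counts were 24.9, 19.8 and 154.9 at week 6, 74.4, 22.5 and 145.9 at week 8, 57.8, 66.0 and 126.2 at week 10, and 424.6, 99.4 and 83.2 at week 12. FVB normalized counts were 581.8, 233.7 and 489.8 at week 6, 447.8, 298.9 and 472.4 at week 8, 402.5, 612.2 and 668.2 at week 10, and 328.2, 226.8 and 626.6 at week 12. At weeks 6, 8 and 10 every PyMT library was below every FVB library, and at week 12 PyMT replicate 1 lay among the FVB values. Over all weeks Cd163 was 4.46-fold lower, a log2 fold change of -2.16 (SE 0.39, adjusted p 5.57e-05, edgeR). It was called in all 32 alternatives, with log2 fold changes from -2.44 to -1.85.

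Lyve1 (ENSMUSG00000030787, chr7:117994121-118006467, minus strand), a hyaluronan receptor of resident macrophages and lymphatic vessels, was the other gene called lower. PyMT normalized counts were 0, 0 and 66.9 at week 6, 27.7, 28.1 and 91.8 at week 8, 42.7, 134.1 and 20.5 at week 10, and 58.6, 35.3 and 49.0 at week 12. FVB normalized counts were 245.7, 62.5 and 74.9 at week 6, 285.1, 140.7 and 83.6 at week 8, 142.3, 83.2 and 181.5 at week 10, and 188.3, 49.2 and 250.4 at week 12. The genotypes overlapped at each week by 1 library or another, while 8 of 12 PyMT libraries were below the lowest FVB library. Lyve1 was 3.34-fold lower over all weeks, a log2 fold change of -1.74 (SE 0.54, adjusted p 0.00985, edgeR), and the call held in all 32 alternatives, with adjusted p from 0.000615 to 0.0303. The libraries with no Lyve1 read, PyMT week 6 replicates 1 and 2, had packet sizes of 14 and 25, and a count of 0 there allows up to 2.67 and 3.13 normalized counts by counting error alone.

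Trem2 (ENSMUSG00000023992, chr17:48485726-48493472, plus strand) moved the other way. Normalized counts in PyMT were 83.7, 81.3 and 72.1 at week 6, 86.8, 25.3 and 112.9 at week 8, 73.9, 68.1 and 75.9 at week 10, and 78.1, 91.9 and 85.9 at week 12. In FVB they were 8.11, 5.40 and 3.52 at week 6, 24.0, 0 and 24.9 at week 8, 15.1, 16.0 and 3.13 at week 10, and 59.2, 0 and 15.3 at week 12. The counts of 0 at weeks 8 and 12 allow up to 3.49 and 3.78 normalized counts by counting error alone. PyMT exceeded FVB without overlap within each week, though at week 8 the gap was narrow, between 27 reads in PyMT replicate 2, whose packet size was 23, and 22 reads in FVB replicate 3. Over all weeks Trem2 was 6.00-fold higher, a log2 fold change of 2.59 (SE 0.57, adjusted p 0.000489, edgeR), and it was called in all 32 alternatives, from 2.29 to 3.24. Of the PyMT libraries, 11 of 12 were above the highest FVB library. The PyMT level ran from 25.3 to 112.9 normalized counts, with a coefficient of variation of 26.0%.

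Arg1 (ENSMUSG00000019987, chr10:24635014-24647276, minus strand), arginase 1, was higher in PyMT as well, but its level was uneven. PyMT normalized counts were 408.6, 940.7 and 490.7 at week 6, 372.1, 5128 and 194.1 at week 8, 581, 510.4 and 313 at week 10, and 404, 252.1 and 1013 at week 12. FVB normalized counts were 175, 89.5 and 89.9 at week 6, 256.1, 125.6 and 88.1 at week 8, 304, 63.1 and 42.3 at week 10, and 145.3, 287.3 and 197.9 at week 12. The genotypes were separate at weeks 6 and 10, by a narrow gap at week 10, and 10 of 12 PyMT libraries exceeded the highest FVB library. PyMT week 8 replicate 2 stood far above the other PyMT libraries, and it was also the library with the lowest Trem2 in PyMT and the highest sum of epithelial markers. Over all weeks the log2 fold change was 2.27 (SE 0.46, adjusted p 0.000229, edgeR), and without that library it was 1.68 (SE 0.33, adjusted p 0.000161).

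**Figure D2:**
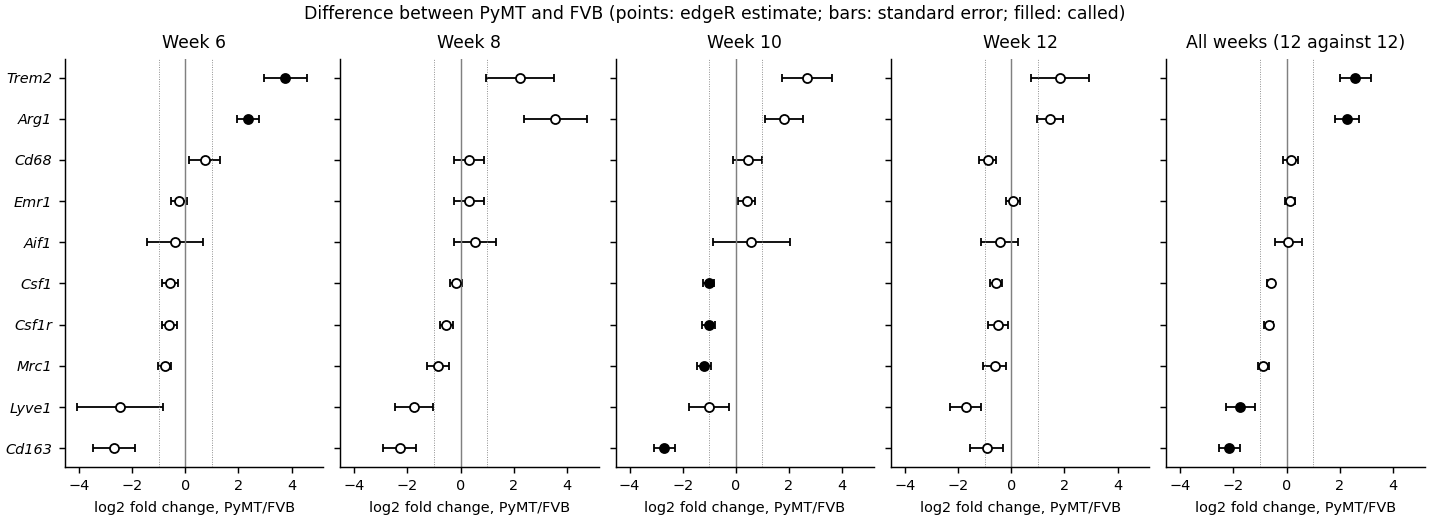
Points are edgeR's log2 fold changes of PyMT over FVB for the 10 genes at each week and over all weeks, bars are standard errors, filled points are called genes, and dotted lines mark a 2-fold change. Trem2 and Arg1 lie to the right of 0 in every panel, Cd163, Lyve1, Mrc1, Csf1r and Csf1 lie to the left, and 4 genes are filled over all weeks.

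Week by week, the same test with 3 against 3 libraries called fewer genes. At week 6 it called 2 of 10 (10.0% of all genes tested), Arg1 with a log2 fold change of 2.36 (SE 0.42, adjusted p 0.01, edgeR) and Trem2 with 3.77 (SE 0.80, adjusted p 0.0205, edgeR). Both were separate from FVB, as were Cd163, Csf1 and Mrc1 on the lower side, so 5 of 10 genes did not overlap against 36.6% of all genes. Trem2 missed the threshold without PyMT replicate 1 (adjusted p 0.059, edgeR), PyMT replicate 3 (0.0513), FVB replicate 2 (0.0676) or FVB replicate 3 (0.0683), and with the replicate number as a block (0.0749). Arg1 missed it in 1 fit of all 24 samples (adjusted p 0.0812, edgeR). The log2 fold change of Cd163 was -2.67 with an adjusted p of 0.067, and without PyMT replicate 3, the only library of that group above 100 normalized counts, it was called at -4.23 (adjusted p 0.0126, edgeR). Cd163 was also called by DESeq2 (adjusted p 0.00193), without the filter on low counts (0.02), with the block (0.0319), in 1 fit of all 24 samples (0.0199) and with counts divided by packet size (0.0214). Lyve1 was called without PyMT replicate 3 as well (adjusted p 0.0266, edgeR), both remaining PyMT libraries being at 0.

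At week 8, 0 of 10 genes were called by edgeR (9.95% of all genes tested), 3 had an unadjusted p under 0.05 (27.9% of all genes), DESeq2 called 2 and limma voom with sample quality weights called 1. Cd163, separate from FVB, came nearest with a log2 fold change of -2.28 (SE 0.62, adjusted p 0.0533, edgeR). It was called without PyMT replicate 2 (-1.83, adjusted p 0.0408, edgeR) or without PyMT replicate 3 (-3.06, adjusted p 0.0369, edgeR), by DESeq2 (adjusted p 0.00263) and with the replicate block (adjusted p 0.0284, edgeR). The estimate for Arg1, 3.57 (SE 1.18, adjusted p 0.0936, edgeR), rested on PyMT replicate 2 and was 0.89 without it.

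At week 10, 4 of 10 genes were called, and all 4 were lower in PyMT (9.09% of all genes tested were called lower, 13.9% in either direction). Cd163 had a log2 fold change of -2.69 (SE 0.39, adjusted p 0.00347, edgeR) and was called in all 14 alternatives. Mrc1 had -1.20 (SE 0.25, adjusted p 0.0149, edgeR), Csf1 -1.03 (SE 0.21, adjusted p 0.0127, edgeR) and Csf1r -1.02 (SE 0.24, adjusted p 0.0261, edgeR), each close to the 2-fold limit. With Trem2 and Arg1 on the higher side, 6 of 10 genes did not overlap, against 40.5% of all genes. DESeq2 called 6 of 10 at this week, the same 4 with Trem2 (2.68, adjusted p 0.0106, DESeq2) and Arg1 (1.81, adjusted p 0.0396, DESeq2) on the higher side.

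The calls near the limit at week 10 turned on single libraries and on the method. Csf1 and Csf1r were not called with library size only, voom with sample quality weights or counts divided by packet size. Csf1r was also not called without the filter on low counts, and Mrc1 was not called with library size only. Csf1 lost its call without FVB replicate 1 (adjusted p 0.0418, edgeR, with a fold under 2), PyMT replicate 2 (-0.95) or PyMT replicate 3 (adjusted p 0.056, edgeR). Csf1r lost it without PyMT replicate 1 (adjusted p 0.0938, edgeR), PyMT replicate 2 (0.0987), PyMT replicate 3 (0.0628), FVB replicate 2 (0.0712) or FVB replicate 3 (log2 fold change -0.84), and with the replicate number as a block (-0.99). Mrc1 lost it without PyMT replicate 1 (adjusted p 0.0721, edgeR), PyMT replicate 3 (0.0646) or FVB replicate 3 (0.0168, with a fold under 2). Arg1, at 1.80 (adjusted p 0.132, edgeR), was called without FVB replicate 1 (3.19, adjusted p 0.00733, edgeR) and with the replicate block (2.31, adjusted p 0.0235, edgeR).

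At week 12, 0 of 10 genes were called by edgeR although 20.7% of all genes tested were. An unadjusted p under 0.05 was reached by 4 genes (40.0% of all genes), DESeq2 called 2 and limma voom with sample quality weights called 3. Lyve1 had a log2 fold change of -1.72 (SE 0.58, adjusted p 0.0579, edgeR), and it was called without FVB replicate 2 (-2.19, adjusted p 0.00373, edgeR). Cd163 had -0.93 (SE 0.63, adjusted p 0.318, edgeR), and without PyMT replicate 1, where Cd163 and Mrc1 were both at FVB levels, it had -2.05 (adjusted p 0.0229, edgeR). Arg1 was called without PyMT replicate 2 (1.81, adjusted p 0.0324, edgeR) and Cd68 without FVB replicate 2 (-1.15, adjusted p 0.0175, edgeR).

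A change of the genotype difference across the 4 weeks was tested in 1 fit of all 24 libraries. It passed for 0 of 10 genes, and for 0 of all 14918 tested, by edgeR, and none of the 10 had an unadjusted p under 0.05, a level that 3.31% of all genes reached. DESeq2 and limma voom with sample quality weights also passed 0 of the 10. Within PyMT, week 12 against week 6 gave 0 calls among the 10 and among all genes by edgeR, and only Cd163 had an unadjusted p under 0.05 (log2 fold change 1.55, SE 0.74, p 0.0473, adjusted p 0.732, edgeR), beside 6.73% of all genes. Within FVB the same span gave 0 calls, and only Cd68 had an unadjusted p under 0.05 (1.34, SE 0.56, p 0.0267, adjusted p 1, edgeR), beside 4.19% of all genes. DESeq2 and limma voom called 0 of the 10 in both.

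Levels can be set side by side between genes as RPKM, the CPM of a gene divided by the length of its annotated exons in kilobases. In FVB the highest mean levels were those of Mrc1 at 23.9 RPKM ± 6.2 and Csf1r at 23.7 ± 8.0 (SD, n = 12), followed by Cd68 at 13.2, Arg1 at 11.2, Csf1 at 10.5, Cd163 at 10.4 and Emr1 at 7.02. Lyve1 at 5.75 and Aif1 at 2.68 were lower, and Trem2 was last at 0.299 RPKM ± 0.31. In PyMT Arg1 led by its mean, 77.7 RPKM, which PyMT week 8 replicate 2 raised, and by its median, 39.5. Csf1r at 18.5, Cd68 at 17.6, Mrc1 at 16.3, Emr1 at 9.47 and Csf1 at 8.48 followed, and Aif1 at 3.56, Cd163 at 3.17, Lyve1 at 2.35 and Trem2 at 2.07 were the lowest. Neighbors such as Mrc1 and Csf1r in FVB, or Cd163 and Lyve1 in PyMT, differed by less than the SD between libraries. The annotated exons of Trem2 add up to 4946 bases, and its RPKM would be higher with a shorter length.

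To see whether the members changed relative to one another, the counts were divided by those of Csf1r in the same library and tested with limma on the log2 ratio, with 0.5 added to each count. Of the 9 remaining genes 4 were called, against 37.9% of all genes tested, 2 higher (27.0% of all genes) and 2 lower (10.9%). Trem2 had a median of 11.4% of the Csf1r count in PyMT and 0.922% in FVB, a log2 difference of 3.93 (SE 0.61, adjusted p 2.39e-05, limma). Arg1 had a median of 64.4% in PyMT and 11.1% in FVB, with a log2 difference of 2.69 (SE 0.53, adjusted p 0.000291, limma).

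Of the resident-type receptors, Cd163 had a median of 12.4% of the Csf1r count in PyMT and 41.4% in FVB (log2 difference -1.84, SE 0.35, adjusted p 0.000215, limma). Lyve1 had 5.00% and 10.3% (-1.89, SE 0.71, adjusted p 0.0275, limma), and its call was lost without FVB week 6 replicate 1 (adjusted p 0.0535, limma) or PyMT week 6 replicate 2 (0.053). Mrc1 had 88.0% and 114% of the Csf1r count, a log2 difference of -0.28 (SE 0.21, 95% interval -0.71 to 0.16, adjusted p 0.263, limma), which did not pass. Csf1 had 48.4% and 44.5%, with a log2 difference of 0.01 (SE 0.18, 95% interval -0.36 to 0.37, adjusted p 0.972, limma).

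Against Csf1r, Emr1 (0.86, SE 0.24, adjusted p 0.00497, limma) and Cd68 (0.80, SE 0.34, adjusted p 0.0491, limma) passed the adjusted p on the higher side with folds under 2, beside a median of all genes of 0.62 on this scale. Aif1 did not pass at 1.25 (SE 0.60, adjusted p 0.08, limma) and was called only without FVB week 10 replicate 2 (1.46, adjusted p 0.0442, limma). With Emr1 as the denominator in place of Csf1r, Mrc1 was called lower as well (-1.13, adjusted p 0.00209, limma), and so it was with Cd68 (-1.07, adjusted p 0.024, limma). Cd163, Lyve1, Trem2 and Arg1 were called with either denominator.

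**Figure D3:**
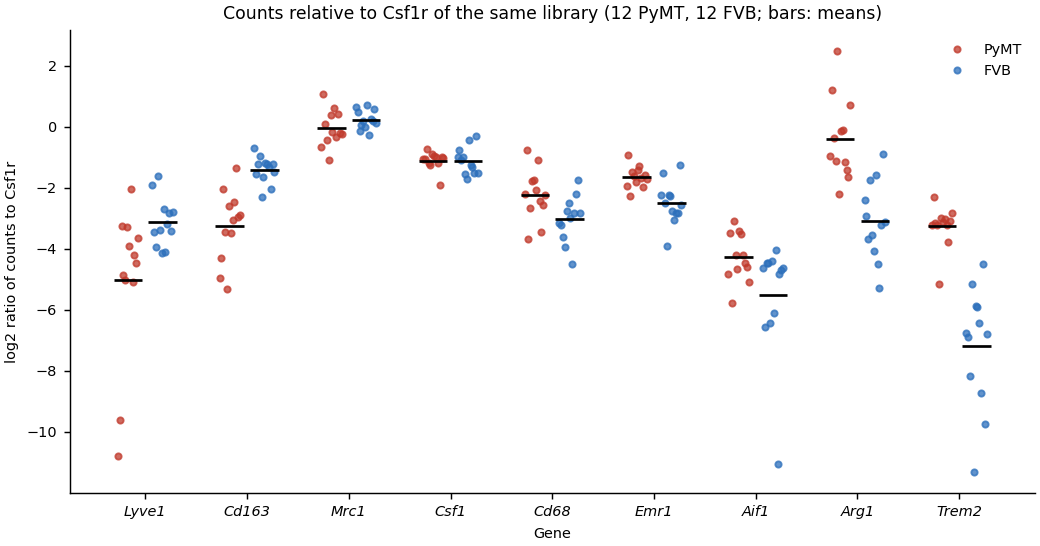
Each point is the log2 ratio of a gene's count to the Csf1r count of the same library, with 0.5 added to both, for 12 PyMT libraries (red) and 12 FVB libraries (blue), and black bars are means. Trem2 and Arg1 lie higher in PyMT, Cd163 and Lyve1 lie lower, and Csf1 and Mrc1 stay close together.

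Other genes of the lineage were read from lists, which are described by counts beside 25.7% of all genes called over all weeks by edgeR. Of 8 growth factor and receptor genes tested of 10, 1 rose, 3 fell and 4 were not called. Il34, the second ligand of the Csf1r receptor, fell from a median of 154.7 normalized counts in FVB to 24.6 in PyMT, a log2 fold change of -2.61 (SE 0.46, adjusted p 3.98e-05, edgeR). Csf2rb, the shared receptor chain for GM-CSF, IL-3 and IL-5, fell by 1.52 on the log2 scale. Flt3, a receptor of dendritic cell precursors, was called lower, with medians of 1.71 normalized counts in PyMT and 25.3 in FVB, and it passed the filter mainly through FVB, with 9 libraries at 1 CPM against 3 of PyMT. Cx3cr1, the fractalkine receptor, rose by 1.37.

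Of 15 pan-macrophage and monocyte genes 1 rose, 1 fell and 13 were not called, with a median log2 fold change of 0.17. Ctss, the lysosomal protease cathepsin S, rose by 1.44 (SE 0.28, adjusted p 0.000143, edgeR), and Mertk, a receptor for the uptake of dying cells, fell with -1.05 (SE 0.23, adjusted p 0.000437, edgeR). Of the genes not called, Cd14 (0.94, adjusted p 3.99e-05, edgeR), Mpeg1 (0.85, 0.00033) and Ms4a7 (0.97, 0.00391) passed the adjusted p on the higher side under 2-fold. The rest of the list did not pass it. The summed level was 485 to 1040 CPM in PyMT (median 886) and 325 to 974 CPM in FVB (median 552). The 5 genes common to leukocytes, among them Ptprc (CD45; -0.05, SE 0.17), had adjusted p from 0.0771 to 0.835 by edgeR and were not called, with a median of -0.05.

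The resident-type and alternatively activated list had 1 gene higher, 10 lower and 2 not called of 13 tested, and a median log2 fold change of -1.35. Maf, a transcription factor of resident macrophages that is also expressed elsewhere, had -2.34 (SE 0.18, adjusted p 1.86e-10, edgeR). Retnla, a secreted protein of alternative activation that adipose tissue also makes, had -2.88 (SE 0.30, adjusted p 2.38e-08, edgeR), and Stab1, a scavenger receptor shared with some endothelium, had -1.15 (SE 0.14, adjusted p 2.39e-07, edgeR). Msr1, scavenger receptor A, was the only gene of the list called higher (1.01, SE 0.42, adjusted p 0.0469, edgeR).

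The lipid-associated and tumor-type list had 3 genes called higher, 2 called lower and 10 not called of 15, and a median of -0.72. Of the genes not called, Ctsb (-0.80, adjusted p 3.02e-06, edgeR), Apoe (-0.72, 7.89e-06) and Cd63 (-0.72, 7.98e-05) passed the adjusted p on the lower side under 2-fold. Vcam1 (-0.97, 0.000835), Fabp5 (-0.73, 0.00193) and Ctsl (-0.43, 0.0074) did so as well. No gene that was not called passed it on the higher side. Spp1, osteopontin, had a log2 fold change of 5.11 (SE 0.59, adjusted p 1.09e-07, edgeR), Itgax (CD11c) had 1.70 and Cd9, a tetraspanin, had 1.06. Lpl, lipoprotein lipase, had -4.00 and Mmp9, a gelatinase, had -3.83. Mmp9 had medians of 7.65 normalized counts in PyMT and 119.6 in FVB. It passed the filter mainly through FVB, with 12 libraries at 1 CPM against 6 of PyMT. Spp1 and Cd9 are also made by mammary epithelium and Lpl by adipocytes, so these genes do not belong to macrophages alone in this tissue.

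Around Arg1, the genes of arginine handling moved in both directions, with 2 higher, 4 lower and 2 not called of 8. Ass1 and Asl, which make arginine from citrulline, rose by 3.90 (SE 0.39, adjusted p 1.12e-08, edgeR) and 1.23 (SE 0.26, adjusted p 0.00036, edgeR). Slc7a2, a transporter of cationic amino acids, had -2.36, Arg2, the mitochondrial arginase, had -2.30 and Oat, ornithine aminotransferase, had -1.02. Nos2, the inducible nitric oxide synthase, which uses the same substrate and was picked after its value was seen, had -2.13 (SE 0.76, adjusted p 0.0229, edgeR).

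Around Trem2, 1 of 5 tested partners of 8 was called, Plcg2, a phospholipase downstream of the receptor (2.07, SE 0.12, adjusted p 2.50e-12, edgeR). Plcg2 had a median of 1111 normalized counts in PyMT and 284.5 in FVB, and whether its reads came from macrophages was not tested. Syk, picked after its value was seen, passed the adjusted p on the lower side but stayed under 2-fold (-0.96, SE 0.16, adjusted p 2.58e-05, edgeR). Tyrobp, the adaptor that Trem2 needs at the cell surface and that was picked after its value was seen, had a median of 113.7 normalized counts in PyMT and 139.2 in FVB (-0.40, SE 0.21, adjusted p 0.106, edgeR).

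**Figure D4:**
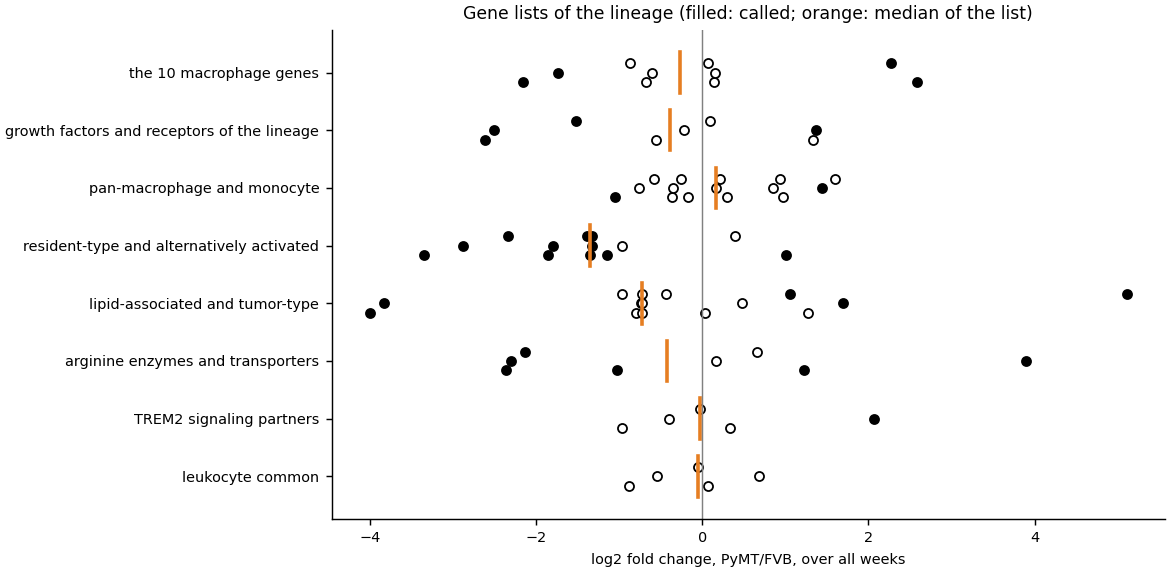
Points are log2 fold changes of PyMT over FVB over all weeks for single genes of 8 lists, filled where called, with an orange bar at the median of each list. The resident-type list has its median at -1.35, the pan-macrophage list at 0.17 and the lipid-associated list at -0.72.

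The tissue around the macrophages differed between the genotypes, and its values are given beside those of the members. All 8 adipocyte markers fell, with summed levels of 124 to 1700 CPM in PyMT and 4510 to 10100 CPM in FVB, all 7 fibroblast markers fell (2050 to 4730 CPM in PyMT, 4340 to 17400 CPM in FVB), and so did all 7 markers of blood endothelium (100 to 301 CPM in PyMT, 482 to 1090 CPM in FVB). Of 7 epithelial markers 6 rose, with summed levels of 2500 to 4900 CPM in PyMT and 336 to 2110 CPM in FVB. The other, Krt19, passed the adjusted p on the lower side but stayed under 2-fold (-0.59, SE 0.23, adjusted p 0.0388, edgeR). All 10 skeletal muscle markers fell over all weeks, with very uneven sums of 0 to 4420 CPM in PyMT and 10.4 to 49600 CPM in FVB. Their part in the differences of the macrophage genes was not tested.

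Lyve1 is shared with lymphatic endothelium, whose other markers moved with it in part. Of 5 tested of 6, 3 fell, Reln (-3.21, SE 0.44, adjusted p 1.59e-06, edgeR), Pdpn (-1.11) and Flt4 (-1.43), while Prox1, the transcription factor that defines these vessels, passed the adjusted p on the higher side but stayed under 2-fold (0.90, SE 0.25, adjusted p 0.00395, edgeR). The summed level was 22.9 to 48.7 CPM in PyMT and 28.7 to 174 CPM in FVB, and Ccl21a was at 0 in every library. Whether Lyve1 reads came from macrophages or from vessels was not tested.

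Markers of other leukocytes were read in the same way. Sums of T cell markers were 0 to 14.6 CPM in PyMT and 2.39 to 15.8 CPM in FVB, and the 2 of 7 genes tested, Cd4 and Lck, had adjusted p of 0.966 and 0.882 by edgeR. Sums of B cell markers were at most 8.70 CPM, with 1 of 6 genes tested and not called. S100a8, the 1 neutrophil gene tested of 6, was called higher, with medians of 67.3 normalized counts in PyMT and 0 in FVB. It passed the filter through PyMT, where 12 libraries reached 1 CPM against 1 of FVB, while Ly6g, which defines these cells, was at 0 in every library. Sums of dendritic cell markers were 6.36 to 36.5 CPM in PyMT and 29.6 to 66.3 CPM in FVB. Of 4 of these genes tested of 6, 2 fell and none rose. Zbtb46 had a log2 fold change of -1.88, and Clec9a had medians of 3.06 normalized counts in PyMT and 20.6 in FVB and passed the filter mainly through FVB, with 9 libraries at 1 CPM against 3 of PyMT.

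**Figure D5:**
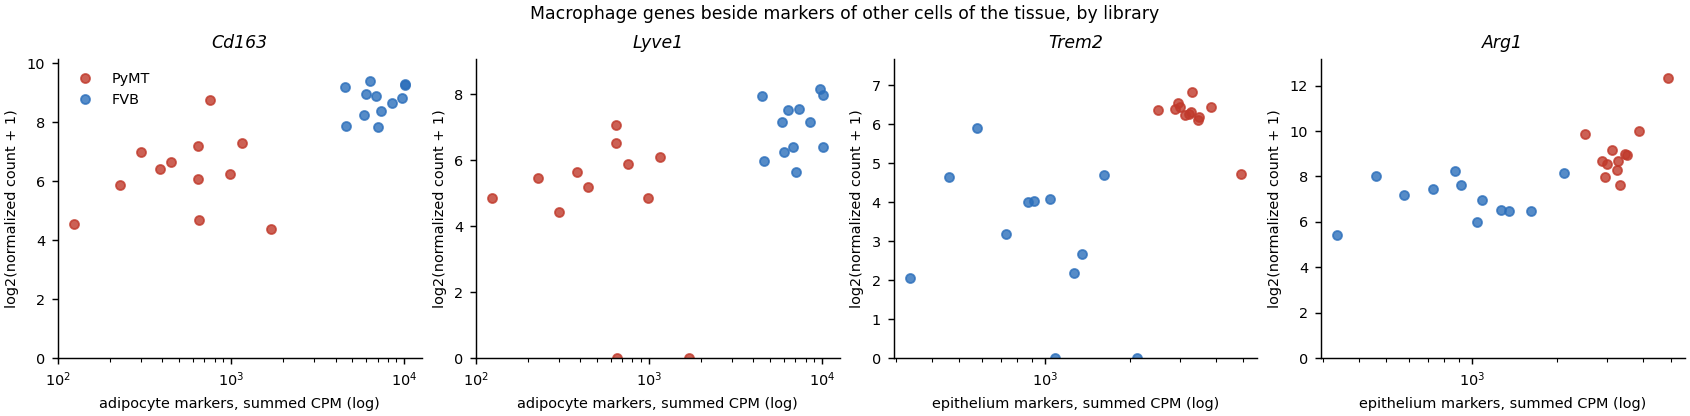
Each point is 1 library, with log2 of the normalized count plus 1 on the vertical axis, against the summed CPM of adipocyte markers (Cd163, Lyve1) or epithelial markers (Trem2, Arg1) on a log scale. PyMT libraries (red) and FVB libraries (blue) do not overlap in either sum, 124 to 1700 against 4510 to 10100 CPM and 2500 to 4900 against 336 to 2110 CPM.

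The genes most like each member in the spread within groups were found by Pearson's r over the 24 libraries after the mean of each of the 8 groups was removed. The points share library, depth and packet size, so r is a description. Emr1 was most like Ctss (r = 0.940), E130311K13Rik (0.934) and Catsper2 (0.904), and Cd68 was most like Fcrls (0.900), Itgam (0.892) and Gm4885 (0.807). Mrc1 was most like C1s (0.838), Gpc3 (0.828) and Prrx1 (0.824), and Cd163 was most like Figf (0.863), Loxl1 (0.858) and Nid1 (0.857).

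For the other members the most alike genes were Akr1c14, Gltp and Dok2 for Csf1 (0.863 to 0.842), Cep76, Gusb and Bin2 for Csf1r (0.866 to 0.852), and Wars, Timm10 and 2010305A19Rik for Lyve1 (0.878 to 0.808). Trem2 had Gm6158, Y_RNA and Coq7 (0.852 to 0.820), Arg1 had Rsad2, Ncald and Mlph (0.858 to 0.836), and Aif1 had 9330151L19Rik, Ctla2b and March3 (0.882 to 0.845). Among the 45 pairs of members the highest r were those of Emr1 with Cd68 (0.649), Cd163 with Lyve1 (0.637) and Mrc1 with Cd163 (0.558), and the lowest was that of Cd163 with Arg1 (-0.516).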

How the data were processed

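Mammary RNA of 24 mice, 3 per group, was analysed. Libraries were directional and depleted of ribosomal RNA. GSNAP (alignment to mm9) and HTSeq (counts of reads per Ensembl gene) were used by the authors, who deposited the counts unnormalized. The strand option and annotation release of the counting are not given in the sources used here. Symbols, coordinates and exon lengths came from GENCODE M1, which covered 37205 of 37991 genes. The members and all gene lists were chosen with earlier results of these data known, and named genes were the members, the 3 genes most like each, and the 3 called genes of smallest adjusted p per list and direction. Nos2, Tyrobp, Syk, Cd14, Mpeg1, Ms4a7, Ptprc, Prox1, Cd4, Lck, Ccl21a and Ly6g were named beside these after their values were seen. So were Apoe, Ctsb, Cd63, Vcam1, Fabp5, Ctsl and Krt19.

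Genes of at least 1 CPM in 12 libraries were tested (14918) with edgeR 4.0.16, TMM scaling, the quasi-likelihood test and Benjamini-Hochberg adjustment, in R 4.3.3. A call needed a fold over 2 beside an adjusted p below 0.05. SE was the log2 fold change over the square root of F. Ratios to Csf1r used limma 3.58.1. Normalized counts are counts over DESeq2 1.42.0 size factors. Tables and figures used Python 3.11.15, pandas 2.3.3, NumPy 2.4.6, SciPy 1.17.1 and matplotlib 3.10.9. The fits were tested on simulated counts. Of genes changed 4-fold, 37.0% were recovered at week 12, 80.9% over all weeks and 79.0% for the ratios. Recovery was 30.5% for the change across weeks and 50.0% for PyMT week 12 against week 6. A gene that was not called may therefore have changed. The chi-square per gene between replicates was 19.6 to 223 over 24 pairs, so no library was a copy. The labels name replicates, and the study's methods describe separate mice. Total counts of 6969375 to 13516601 set the counting error, and the floors of 3 counts cover that error only. Alternatives were DESeq2, RLE factors, library size, no filter, one fit of 24 samples, a replicate block, limma voom with sample quality weights, omission of single libraries and of the pair with most genes at 0, Emr1 or Cd68 as denominator or 5 counts added for the ratios, and, chosen after seeing the data, counts divided by packet size.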

Additional observations from a re-analysis of the deposited data

How the results depend on the processing

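The 4 calls over all weeks (Cd163, Lyve1, Trem2, Arg1) held in every alternative run. Weekly tests rest on 3 libraries a side. The number of the 10 genes called at week 6 was 1 to 3 with single libraries left out, 3 with DESeq2, no filter or counts divided by packet size, and 2 in 1 fit of 24 samples, where Cd163 took the place of Arg1. At week 8 it was 0 to 1 with single libraries left out, 1 with RLE size factors, the replicate block or voom with sample quality weights, 2 with DESeq2, no filter or 1 fit of 24 samples, and 3 with counts divided by packet size. At week 10 it was 1 to 4 with single libraries left out, 1 with library size only, 2 with voom and 6 with DESeq2. At week 12 it was 0 to 2 with single libraries left out, 1 with library size only, 2 with DESeq2, no filter or counts divided by packet size, and 3 with voom. Of 589 other values, 512 kept their direction and side of the threshold, 43 passed it newly and 15 no longer passed. The remaining 19 changed sign, and none of the 19 was a called value. The cause of these changes was not tested. Among these values, omissions of single libraries entered only as the lowest and highest estimate of each gene. The full set of omissions held more losses, and Csf1r at week 10 was called in only 4 of 14 alternatives. Sign changes of week 12 against week 6 are given below and are not among the 19.

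The replicate numbers come from the sample names only. Deviations of same-numbered PyMT and FVB libraries correlated at -0.025 to 0.177 over 12 pairs, 6 of which were best with their own number, so the numbers did not meet the limit of 0.1 in every pair and the samples were not treated as paired. Whether same-numbered mice shared a litter or batch was not tested. With the replicate block 2, 1, 4 and 0 of the 10 genes were called at weeks 6, 8, 10 and 12, and 4 over all weeks. These were not the same genes at each week, as Trem2 was lost and Cd163 gained at week 6, Cd163 was gained at week 8, and Csf1r was lost and Arg1 gained at week 10.

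Estimates for week 12 against week 6 changed sign in some alternatives for Csf1, Cd68, Mrc1 and Arg1 within PyMT. Within FVB they did so for Csf1, Emr1, Mrc1, Cd163 and Lyve1, and none of these was called. For PyMT against FVB and for the ratios, the values that changed sign were as follows, as log2 fold changes. With library size only Emr1 was 0.03 at week 6 and Csf1 0.06 at week 8. With single libraries left out, Aif1 was between -0.86 and 0.23 at week 6, between -0.83 and 0.01 at week 12 and between -0.08 and 0.38 over all weeks, and it was also -0.08 without the 2 libraries with most genes at 0. Under the same omissions Emr1 was between -0.11 and 0.65 at week 8 and between -0.05 and 0.27 at week 12, and Cd68 was between -0.10 and 0.73 at week 8. With voom Cd68 was -0.18 at week 8 and -0.15 over all weeks, and Emr1 was -0.04 at week 12. With counts divided by packet size Cd68 was -0.06 and Aif1 -0.24 over all weeks. For ratios, Csf1 was -0.85 to Emr1 and -0.79 to Cd68, -0.04 to 0.10 to Csf1r with single libraries left out and -0.02 without the 2 libraries with most genes at 0, and Cd68 was -0.06 to Emr1.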
